A study of Mus musculus with 48 samples.

Results

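Tunicamycin was compared with control in kidney slices after 24 h of culture, across all genes and across gene groups of the secretory pathway and of other stress responses. The members were the 12 libraries labelled as 24 h controls or 24 h tunicamycin, of 48 libraries in the series. They form 4 groups of 3: control and tunicamycin slices of C57BL/6J, and control and tunicamycin slices of DBA/2J. Both strains are inbred, carry no transgene, and are the founders of the BXD panel of recombinant mice. All animals were male. The slices were kept ex vivo, and neither the drug dose, the age of the mice nor the oxygen supply of the controls is given in the sources used here. The other arms of the series were cyclosporin A, a 6 h time point and changes in oxygen supply. The question addressed is which transcripts of kidney tissue respond to a nephrotoxin that acts on protein glycosylation.

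Tunicamycin inhibits DPAGT1, the enzyme that starts the dolichol-linked sugar chain used for N-glycosylation in the endoplasmic reticulum (ER). Glycoproteins that lack this chain fold poorly, and unfolded proteins in the ER activate the sensors IRE1, PERK and ATF6, which together drive the unfolded protein response (UPR). IRE1 splices the mRNA of XBP1, ATF6 is cut to a transcription factor, and PERK phosphorylates the translation factor eIF2alpha, which favours translation of ATF4. Targets of XBP1 and ATF6 include ER chaperones, components of ER-associated degradation (ERAD) and transport factors. Targets of ATF4 and of CHOP, the product of Ddit3, include genes of amino acid supply and of translation recovery.

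The deposited values are raw read counts per gene. Total counts of the 12 libraries ranged from 12384733 to 23316215, with a median of 19900705. Strain accounted for the leading axis of variation, with 61.3% of the variance in a principal component analysis of the 12 libraries. The markers listed for proximal tubule, distal segments, collecting duct, podocytes, endothelium and stroma were all tested, as were 11 of 15 immune and 4 of 9 urothelial markers. The uroplakin genes Upk2 and Upk3a were at 0 in all 12 libraries. Library 3 of the C57BL/6J tunicamycin group stood apart in the genes described here: its mean log2 CPM over the ER chaperone list was 7.66, against 8.06 and 7.995 in the other C57BL/6J tunicamycin libraries and 7.45 to 7.59 in the C57BL/6J controls. CPM are a gene's counts scaled by the total count of the library. In DBA/2J the same mean was 7.35 to 7.51 in controls and 7.89 to 8.06 under tunicamycin. Main counts are therefore also given without that library. Libraries are numbered as biological replicates, with nothing said of separate mice, so the p-values measure the spread between these libraries.

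Over both strains, 164 genes rose and 69 fell under tunicamycin at a Benjamini-Hochberg adjusted p under 0.05 (edgeR quasi-likelihood test). These 233 genes were 1.38% of the 16905 tested, with 0.97% higher and 0.408% lower. Genes that rose did so by a median of 1.37-fold, and 30 of them exceeded a log2 fold change of 1. Genes that fell did so by a median of 1.27-fold, and 10 of them changed by more than 1 on the log2 scale. All 233 kept their sign in each strain taken alone, which their choice by the mean of both strains favours. Over all genes tested, the log2 fold changes of the strains had a Pearson correlation of 0.23. In 117 of the 164 genes every tunicamycin library lay above every control of its strain in both strains, a pattern seen in 1.46% of all genes tested. In 59 of the 69 every tunicamycin library lay below, against 1.68% of all genes.

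The number of genes called depended on single libraries. It was 344 without C57BL/6J tunicamycin library 3. It dropped to 78 without C57BL/6J tunicamycin 1, to 111 without C57BL/6J tunicamycin 2 and to 134 without DBA/2J tunicamycin 1. Without C57BL/6J control 1, 2 or 3 it was 107, 97 or 101, and without DBA/2J control 1 or 3 it was 125 or 93. DESeq2's test called 526 genes, with 287 higher and 239 lower, so the share of genes that fell was larger under that test. Of 84 called genes taken by the naming rule or singled out after their values were seen, 36 held their call under every alternative, and none turned its sign.

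Genes of the secretory pathway made up 51 of the 164 that rose and none of the 69 that fell. They come from 7 lists with 193 members tested, which hold ER chaperones, ERAD, UPR regulators, N-glycan assembly, N-glycan trimming, ER translocation and ER-to-Golgi transport. Of those members 26.4% rose, against 0.97% of all genes tested. Their median log2 fold change was 0.17, against 0.01 over all genes, and 161 of 193 had a positive value, against 8895 of 16905. The lists were chosen with earlier results of these data known, so these shares are description and no test. Without C57BL/6J tunicamycin library 3, 75 members were called. The count was 32, 26 and 28 without C57BL/6J control 1, 2 or 3, 25 and 30 without C57BL/6J tunicamycin 1 or 2, 25 without DBA/2J control 3 and 32 without DBA/2J tunicamycin 1.

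**Figure D1:**
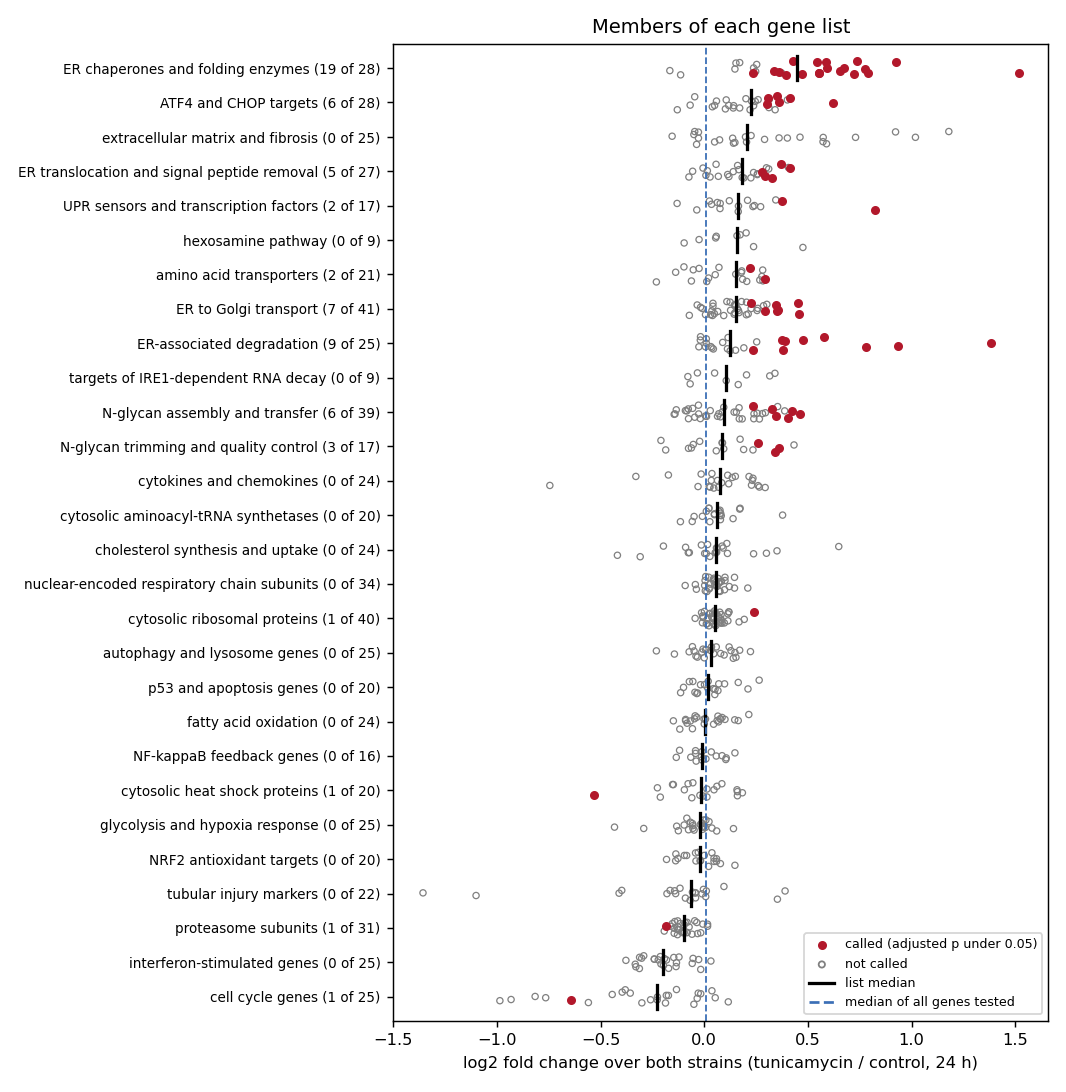
Log2 fold change over both strains (x axis, tunicamycin over control at 24 h) of every tested member of 28 gene lists (y axis, with the number called of the number tested). Filled points passed the adjusted threshold, open points did not, black bars are list medians, and the dashed line is the median of all 16905 genes tested; the ER chaperone list has the highest median, 0.45, with 19 of 28 members called.

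The promoters of 5 genes that rose are shown because they hold the motifs to which UPR transcription factors are known to bind. Each is the 250 bases before the RefSeq start site (build GRCm38.p6), read 5′ to 3′ on the gene's strand, with motif matches in capitals. Hspa5 (chr2:34771840-34772089, plus strand), Hsp90b1 (chr10:86705445-86705694, minus strand) and Syvn1 (chr19:6046326-6046575, plus strand) carry the ER stress response element ERSE. Herpud1 (chr8:94386179-94386428, plus strand) carries ERSE-II and an ATF4-CHOP core, and Chac1 (chr2:119350992-119351241, plus strand) carries an ATF4-CHOP core.
Hspa5: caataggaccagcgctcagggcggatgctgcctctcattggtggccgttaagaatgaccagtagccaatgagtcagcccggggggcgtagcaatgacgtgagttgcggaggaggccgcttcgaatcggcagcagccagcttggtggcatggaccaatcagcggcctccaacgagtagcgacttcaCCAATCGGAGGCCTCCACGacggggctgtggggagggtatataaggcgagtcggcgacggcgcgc
Hsp90b1: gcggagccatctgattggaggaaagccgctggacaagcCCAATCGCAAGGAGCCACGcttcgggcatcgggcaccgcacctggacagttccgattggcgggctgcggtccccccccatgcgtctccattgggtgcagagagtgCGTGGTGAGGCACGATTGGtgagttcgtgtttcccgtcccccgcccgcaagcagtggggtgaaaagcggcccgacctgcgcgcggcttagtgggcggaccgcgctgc
Syvn1: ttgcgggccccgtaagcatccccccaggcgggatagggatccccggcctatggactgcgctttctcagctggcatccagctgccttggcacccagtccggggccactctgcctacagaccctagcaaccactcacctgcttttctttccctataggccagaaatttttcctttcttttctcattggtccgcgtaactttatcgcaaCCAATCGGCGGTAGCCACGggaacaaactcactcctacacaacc
Herpud1: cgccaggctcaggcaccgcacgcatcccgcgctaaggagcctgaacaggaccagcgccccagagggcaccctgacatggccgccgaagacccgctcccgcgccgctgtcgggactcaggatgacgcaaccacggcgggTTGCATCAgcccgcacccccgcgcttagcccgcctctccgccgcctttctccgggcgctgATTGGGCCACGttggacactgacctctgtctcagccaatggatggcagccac
Chac1: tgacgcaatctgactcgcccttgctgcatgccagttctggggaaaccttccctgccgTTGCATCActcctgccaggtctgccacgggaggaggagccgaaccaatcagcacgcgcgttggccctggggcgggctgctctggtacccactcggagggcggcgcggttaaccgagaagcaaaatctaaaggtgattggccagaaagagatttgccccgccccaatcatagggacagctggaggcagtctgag

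ERSE was searched as CCAAT and CCACG with 9 bases between them, and ERSE-II as ATTGG and CCACG with 1 base between them. The UPR element core was TGACGTGG and the ATF4-CHOP core TTGCATCA. Both strands of the window from 250 bases before to 50 after the start were read. Overlap between motifs was allowed. RefSeq promoters matched 122 of the 164 genes that rose and 48 of the 69 that fell. ERSE or ERSE-II lay in 13 of the 122, or 10.7%, in none of the 48, and in 0.181% of the 27025 genes with a promoter. The latter include genes not tested here. Of the ER chaperone genes that rose, 9 of 17 matched genes held such an element, or 52.9%. Both ERSE of Hsp90b1 lie in the printed window, with first bases 212 and 107 bases before the start, and that of Hspa5 begins 65 bases before it. The ATF4-CHOP core lay in 5 of 24 matched genes of the ATF4 and CHOP target list, or 20.8%, and in 1.03% of all genes with a promoter. Of the genes of that list that rose, Chac1 alone held a match. The UPR element core lay in 7 of 36 matched genes of the ER-to-Golgi list, or 19.4%, against 0.714% of all genes with a promoter. Those of the list that also rose were Kdelr3, Sec24d and Stx5a. A match describes these letters in this window and does not show that a factor was bound.

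ER chaperones and folding enzymes had the largest share of members called among the 28 lists: 19 of 28 tested members rose, none fell, and the list median was 0.45 on the log2 scale. Fkbp11, an ER prolyl isomerase, had the smallest p of all genes. In C57BL/6J it stood at 5.72, 5.75 and 5.49 CPM in controls and at 16.2, 17.4 and 9.09 CPM under tunicamycin. In DBA/2J it stood at 10.3, 8.88 and 9.88 CPM in controls and at 38.1, 29.6 and 25.8 CPM under tunicamycin. Every tunicamycin library lay above the controls of its strain, with C57BL/6J tunicamycin 3 the lowest of them. Fkbp11 rose by 1.52 on the log2 scale (SE 0.145, edgeR adjusted p = 0.00148).

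Calr, a lectin chaperone that holds glycoproteins with a single terminal glucose, rose by a log2 fold change of 0.72 (SE 0.0828, edgeR adjusted p = 0.00167). Its CPM were 1360, 1290 and 1440 in C57BL/6J controls against 2320, 2280 and 1620 under tunicamycin, and 1360, 1340 and 1180 in DBA/2J controls against 2500, 2340 and 2080. The ranges did not meet in either strain. Canx, the membrane-bound partner of calreticulin in the same cycle, rose by 0.23 (SE 0.0464, edgeR adjusted p = 0.0251), a call that held in 4 of 12 refits that each left out a library. Pdia3, the disulfide isomerase that works with both lectins, rose by 0.59 (SE 0.0824, edgeR adjusted p = 0.00536).

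Hspa5, which encodes BiP, the main HSP70 chaperone of the ER lumen, had one of the smaller changes among called members. It was at 6560, 5710 and 6330 CPM in C57BL/6J controls and 8560, 7690 and 6130 CPM under tunicamycin. In DBA/2J it was at 5490, 5180 and 4370 CPM in controls and 7560, 7500 and 6340 CPM under tunicamycin. The groups overlapped in C57BL/6J, through tunicamycin library 3, and not in DBA/2J. Its log2 fold change of 0.39 (SE 0.0875, edgeR adjusted p = 0.0439) held its call in 2 of 12 refits with a library left out, and neither in the fit of all 48 libraries nor without the filter on low counts.

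Manf, an ER protein that binds BiP and is also secreted, rose by 0.78 (SE 0.0846, edgeR adjusted p = 0.00167), from 245, 213 and 254 to 426, 407 and 301 CPM in C57BL/6J and from 238, 238 and 198 to 437, 419 and 375 CPM in DBA/2J. Creld2, an ER stress-inducible protein with epidermal growth factor domains, rose by 0.92 (SE 0.121, edgeR adjusted p = 0.00608). Among J-domain cochaperones of BiP, Dnajc3 rose by 0.66 (SE 0.0888, edgeR adjusted p = 0.00536), and Dnajb11 by 0.56. Dnajb9 rose by 0.43 with overlapping C57BL/6J groups, and its call held in 2 of 12 refits and neither with all 48 libraries nor without the filter on low counts. Hyou1, the nucleotide exchange factor of BiP, rose by 0.59 (SE 0.0951, edgeR adjusted p = 0.0112). Sdf2l1, which works with the J-domain proteins, rose by 0.67 with 3 of 12 refits keeping the call, which was lost without the filter. Hsp90b1, the HSP90 chaperone of the ER also called GRP94, rose by 0.54 (SE 0.1, edgeR adjusted p = 0.0195), and its C57BL/6J groups overlapped, with tunicamycin 3 at 2550 CPM below control 1 at 2570. That call held in 7 of 12 refits and not without the filter.

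Members of the list that act in disulfide formation differed. Ero1lb, an oxidase that recharges disulfide isomerases, rose by 0.79 (SE 0.109, edgeR adjusted p = 0.00536), while its paralog Ero1l had a value of -0.11 (edgeR adjusted p = 0.551). Pdia4 rose by 0.74 and Pdia6 by 0.55, with edgeR adjusted p of 0.0103 and 0.00681. The list members not called included P4hb, the classical disulfide isomerase, at 0.25 (edgeR adjusted p = 0.137), and Tmx1, a membrane-bound isomerase, at -0.17 (edgeR adjusted p = 0.339).

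**Figure D2:**
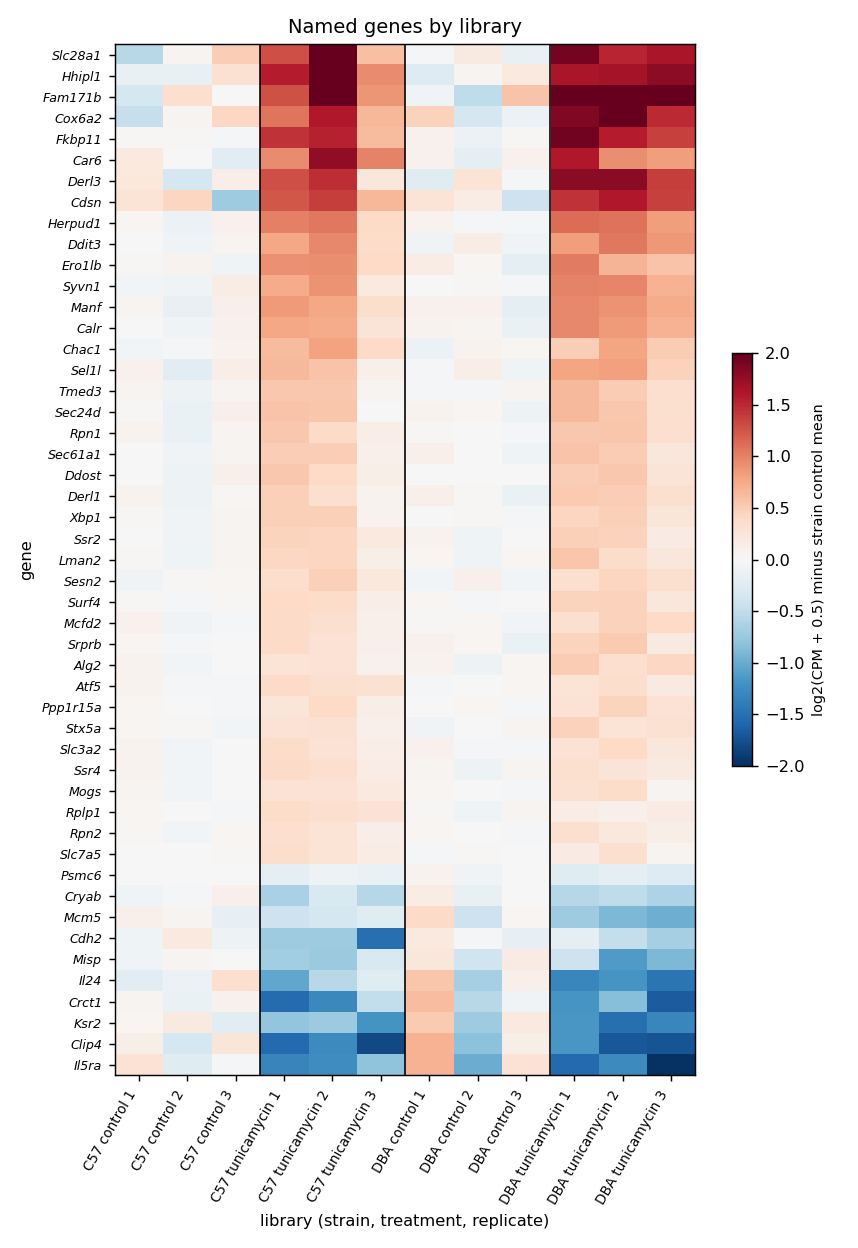
Log2(CPM + 0.5) minus the mean of the strain's 3 controls (colour, from -2 in blue to 2 in red) for called genes chosen by the naming rule, with 1 gene left out (rows, ordered by log2 fold change) in the 12 libraries (columns). Column C57 tunicamycin 3 is paler than its 2 replicates for the ER genes in the upper rows; Fkbp11 there is at 9.09 CPM against 16.2 and 17.4.

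ERAD, which returns misfolded proteins to the cytosol for degradation, followed with 9 of 25 members higher and none lower (median 0.12). Herpud1, a membrane scaffold of the HRD1 complex, was at 259, 231 and 267 CPM in C57BL/6J controls and 507, 523 and 331 CPM under tunicamycin. DBA/2J libraries held 269, 250 and 249 CPM and 554, 542 and 455 CPM. All 6 tunicamycin libraries lay above all 6 controls. Herpud1 rose by 0.94 on the log2 scale (SE 0.0987, edgeR adjusted p = 0.00167).

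Syvn1, which encodes the ubiquitin ligase HRD1 itself, rose by 0.78 (SE 0.0989, edgeR adjusted p = 0.00536), and its adaptor Sel1l rose by 0.58 (SE 0.0983, edgeR adjusted p = 0.0155). Derl3, a derlin of the retrotranslocation channel, rose by 1.39 (SE 0.213, edgeR adjusted p = 0.0177). It reached 107, 123 and 51.4 CPM in C57BL/6J against 50.7, 34.1 and 48.2 CPM in controls, and 125, 124 and 92.4 CPM in DBA/2J against 29.7, 42.8 and 34.4 CPM. C57BL/6J tunicamycin 3 thus lay just above the highest control, and the call held in 7 of 12 refits and not with the replicate number as a block (edgeR adjusted p = 0.0779). Derl1 rose by 0.38, and Edem1, a lectin that marks glycoproteins for degradation, rose by 0.48 with 2 of 12 refits keeping the call, which was lost without the filter, as was that of Sel1l. Vcp, the ATPase that pulls substrates out of the membrane, had a value of 0.12 (edgeR adjusted p = 0.388).

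The count of ERAD members called moved with single libraries, from 2 without DBA/2J control 3 and 3 without C57BL/6J control 2 to 10 without C57BL/6J tunicamycin 3. It was 4 without C57BL/6J control 3, C57BL/6J tunicamycin 1 or DBA/2J control 1, and 5 without C57BL/6J control 1 or tunicamycin 2. For ER chaperones the corresponding counts lay between 13 and 21, within 1.5 times of 19.

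Of the proteasome, which degrades ERAD substrates, edgeR called no subunit higher. Of 31 tested, 29 had negative values (median -0.10), and 1, the ATPase subunit Psmc6, fell by 0.18 on the log2 scale (SE 0.0408, edgeR adjusted p = 0.0436). Its CPM were 150, 149 and 150 in C57BL/6J controls against 131, 139 and 136, and 163, 148 and 154 in DBA/2J controls against 131, 135 and 130. The groups did not overlap, but the call held in 1 of 12 refits. It was lost with all 48 libraries, without the filter and with the replicate number as a block. DESeq2's test called 5 subunits. In 7 of the 31 every tunicamycin library lay below the controls of its strain, as in 1.68% of all genes.

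Among genes of ER entry, 5 of 27 rose and none fell (median 0.18). Sec61a1, which encodes the pore subunit of the translocon, rose by 0.41 (SE 0.0736, edgeR adjusted p = 0.0155). The signal sequence receptor subunits Ssr2 and Ssr4 rose by 0.37 and 0.28, the signal recognition particle receptor subunit Srprb by 0.33, and Tram1 by 0.29. Ssr2 went from 107, 101 and 110 to 145, 143 and 121 CPM in C57BL/6J and from 107, 96.4 and 103 to 142, 140 and 114 CPM in DBA/2J, with no overlap in either strain. Its call held in all 12 refits, that of Sec61a1 in 9, that of Ssr4 in 6 and that of Srprb in 4. The number of members called ranged from 1, without C57BL/6J control 2, C57BL/6J tunicamycin 1 or DBA/2J control 3, through 2 without C57BL/6J control 3, C57BL/6J tunicamycin 2 or DBA/2J tunicamycin 1 and 3 without C57BL/6J control 1 or DBA/2J tunicamycin 2, to 9 without C57BL/6J tunicamycin 3. DESeq2's test and the unfiltered fit called 9, and the fit of all 48 libraries 10.

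Dpagt1, the target of tunicamycin, was not called by edgeR on the 12 libraries. Its CPM were 30.8, 31.2 and 33.6 in C57BL/6J controls and 43.6, 40.6 and 31.4 under tunicamycin, and 33.2, 33.9 and 27.8 in DBA/2J controls and 38.6, 43.3 and 35.2 under tunicamycin. C57BL/6J tunicamycin 3 lay within its controls, while the DBA/2J groups did not overlap. Its change was 0.29 on the log2 scale (SE 0.0852, edgeR adjusted p = 0.122). It was called without C57BL/6J tunicamycin 3, at 0.36 (edgeR adjusted p = 0.027), and without the filter on low counts (edgeR adjusted p = 0.0246), and in none of the other 15 alternatives.

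The list of N-glycan assembly and transfer, which includes Dpagt1, had 6 of 39 members higher and none lower (median 0.09). Of these, 4 encode subunits of the oligosaccharyltransferase, which moves the finished glycan onto nascent chains. Rpn1 rose by 0.42 (SE 0.0649, edgeR adjusted p = 0.00716) and Ddost by 0.40 (SE 0.0684, edgeR adjusted p = 0.0126). Rpn2 rose by 0.24, with the call kept in 5 of 12 refits, and Magt1 by 0.34. Rpn1 was at 284, 246 and 280 CPM in C57BL/6J controls against 390, 350 and 297, and at 271, 269 and 262 CPM in DBA/2J controls against 389, 392 and 337, with no overlap. The catalytic subunits Stt3a and Stt3b were at 0.17 and 0.24 and were not called (edgeR adjusted p = 0.384 and 0.0851). The mannosyltransferase Alg2 rose by 0.33 and the GDP-mannose enzyme Gmppb by 0.46. Without C57BL/6J tunicamycin 3 the list count was 14, and it was 2 without C57BL/6J tunicamycin 1 and 3 without C57BL/6J control 1, 2 or 3, C57BL/6J tunicamycin 2, DBA/2J control 3 or DBA/2J tunicamycin 1. DESeq2's test and the fit of all 48 libraries called 10, and the unfiltered fit 13. The hexosamine pathway, which makes the UDP-GlcNAc that DPAGT1 uses, had no member called of 9 (DESeq2's test also called none, and its first enzyme Gfpt1 was at 0.24, edgeR adjusted p = 0.191).

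Glycan trimming and quality control had 3 of 17 members higher and none lower. These were Mogs, the glucosidase that removes the outermost glucose, at 0.26 (SE 0.0576, edgeR adjusted p = 0.0425), and the cargo lectin Lman2 and the cargo receptor subunit Mcfd2, at 0.36 and 0.34. Lman2 and Mcfd2 kept their calls in all 12 refits and Mogs in 2. In ER-to-Golgi transport 7 of 41 members rose and none fell (median 0.15). Surf4, a cargo receptor that also retrieves ER proteins, rose by 0.35 (SE 0.0548, edgeR adjusted p = 0.0083), from 339, 325 and 341 to 443, 434 and 367 CPM in C57BL/6J and from 353, 340 and 343 to 468, 475 and 402 CPM in DBA/2J. Its ranges did not overlap. Tmed3, a cargo adaptor of the p24 family, rose by 0.46, the coat protein gene Sec24d by 0.45 (call kept in 2 of 12 refits and lost without the filter, C57BL/6J groups overlapping), the retrieval receptor Kdelr3 by 0.36 and the SNARE gene Stx5a by 0.29. The transport count was 15 without C57BL/6J tunicamycin 3. It was 2 without C57BL/6J control 3 or C57BL/6J tunicamycin 1, 3 without C57BL/6J control 1 or 2, C57BL/6J tunicamycin 2, DBA/2J control 1 or 3 or DBA/2J tunicamycin 1, and 4 without DBA/2J tunicamycin 2. DESeq2's test called 13, the fit of all 48 libraries 11 and the unfiltered fit 12.

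Of the genes that rose outside the lists, 9 were singled out after their values were seen, and no group is tested by them. Atp2a2, the calcium pump SERCA2 of the ER, rose by 0.42 (SE 0.0619, edgeR adjusted p = 0.00609). Its CPM were 383, 366 and 399 in C57BL/6J controls against 516, 547 and 414, and 433, 394 and 398 in DBA/2J controls against 572, 577 and 532, without overlap. The calcium-binding nucleobindins Nucb1 and Nucb2 rose by 0.43 and 0.50. Bhlha15, the transcription factor MIST1 known from secretory cells, rose by 1.29 (SE 0.19, edgeR adjusted p = 0.00608), and Nans, an enzyme of sialic acid synthesis, rose by 0.52 (SE 0.0727, edgeR adjusted p = 0.00536). Each of these 5 genes kept its call in 12 of 12 refits. Slc35b1, a transporter of adenine nucleotides into the ER, and Serp1, a small ER protein bound to the translocon, rose by 0.43 and 0.39, with calls kept in 4 and 3 of 12 refits. The others, Pycr1 and Acox2, are described below.

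Among UPR sensors and transcription factors 2 of 17 rose, and 1 without C57BL/6J control 2, C57BL/6J tunicamycin 1 or DBA/2J control 3. The unfiltered fit called 5 and DESeq2's test 3. Ddit3 was at 173, 163 and 178 CPM in C57BL/6J controls and 294, 333 and 220 CPM under tunicamycin. In DBA/2J it was at 177, 207 and 177 CPM and 333, 388 and 341 CPM. The groups did not overlap, and Ddit3 rose by 0.82 on the log2 scale (SE 0.0877, edgeR adjusted p = 0.00167). The annotation holds a further Ddit3 gene, ENSMUSG00000116429, in the same place with a change of 0.82, and how reads were shared between both identifiers is uncertain.

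Xbp1 rose by 0.37 (SE 0.0663, edgeR adjusted p = 0.015), from 222, 210 and 227 to 305, 307 and 231 CPM in C57BL/6J and from 208, 212 and 205 to 282, 289 and 246 CPM in DBA/2J. C57BL/6J tunicamycin 3 exceeded its highest control by a small margin, and the call held in 9 of 12 refits. Counts per gene do not separate spliced from unspliced Xbp1. Atf4 had a log2 fold change of 0.17 (SE 0.0498, edgeR adjusted p = 0.137), with 874, 863 and 864 CPM against 985, 984 and 925 in C57BL/6J and 792, 831 and 741 against 844, 948 and 859 in DBA/2J. Its tunicamycin libraries lay above the controls of their strain in each case, but the change did not pass the threshold. The sensor genes Eif2ak3 (PERK), Atf6 and Ern1 (IRE1) had values of 0.23, 0.21 and 0.08 and were not called by edgeR (adjusted p = 0.122, 0.137 and 0.717).

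Targets of ATF4 and CHOP had 6 of 28 members higher and none lower, with a list median of 0.23. Chac1, which degrades glutathione, was at 48.3, 49.4 and 53 CPM in C57BL/6J controls and 78.2, 87.6 and 65.9 CPM under tunicamycin. DBA/2J values were 64.3, 73.6 and 71.7 CPM and 98.3, 121 and 99.3 CPM. The groups did not overlap, and Chac1 rose by 0.62 (SE 0.0749, edgeR adjusted p = 0.00267). Sesn2, a regulator of mTORC1, rose by 0.36 (SE 0.0531, edgeR adjusted p = 0.00608). The transcription factor Atf5 rose by 0.31 (SE 0.0435, edgeR adjusted p = 0.00536). Ppp1r15a, which encodes GADD34, the phosphatase subunit that reverses eIF2alpha phosphorylation, rose by 0.30 (SE 0.0534, edgeR adjusted p = 0.0144). Trib3, a pseudokinase that restrains ATF4, and Psph, the last enzyme of serine synthesis, rose by 0.41 and 0.35, with calls kept in 3 and 1 of 12 refits.

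Other members of that arm did not pass. Asns, which makes asparagine, had a value of 0.05 (edgeR adjusted p = 0.816), Atf3 of 0.31 (edgeR adjusted p = 0.394) and Phgdh, the entry enzyme of serine synthesis, of 0.34 (edgeR adjusted p = 0.0523). In the fit of all 48 libraries none of the 28 members was called. DESeq2's test on the 12 libraries called 9. Without C57BL/6J tunicamycin 3 the count was 10, and it was 3 without C57BL/6J control 3 or DBA/2J control 3. The amino acid transporters had 2 of 21 members higher, both chains of a heterodimer: Slc3a2 at 0.29 (SE 0.0566, edgeR adjusted p = 0.0235) and Slc7a5 at 0.22 (SE 0.0505, edgeR adjusted p = 0.0469). Their calls held in 7 and 2 of 12 refits. That count of 2 was 0 without C57BL/6J control 2 or 3, C57BL/6J tunicamycin 1 or 2 or DBA/2J control 3, and 1 without C57BL/6J control 1, DBA/2J control 1 or 2 or DBA/2J tunicamycin 1 or 2. It was 1 with DESeq2's size factors or with all 48 libraries, and 4 with DESeq2's test or without the filter. Pycr1, the last enzyme of proline synthesis and singled out after its value was seen, rose by 0.63 with 5 of 12 refits keeping the call. Of 20 cytosolic tRNA synthetases edgeR called none, and DESeq2's test called 2. Without C57BL/6J tunicamycin 3 edgeR called 2, and without DBA/2J tunicamycin 3, or with all 48 libraries, it called 1.

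**Figure D3:**
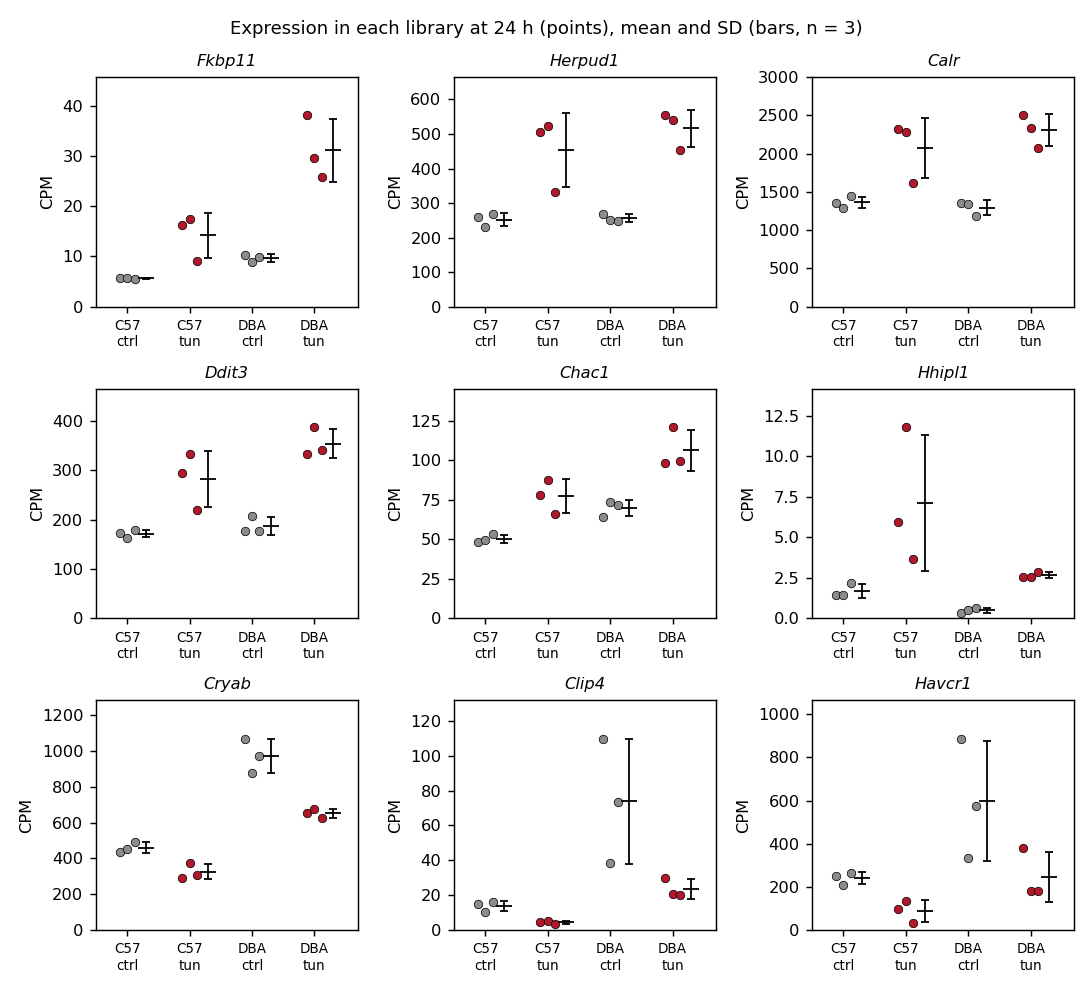
CPM (y axis, from 0) of 9 genes in the 12 libraries at 24 h, by strain and treatment (x axis; grey, control; red, tunicamycin); points are libraries and bars the mean ± SD of 3. Herpud1 is between 231 and 269 in controls and between 331 and 554 under tunicamycin, while the Havcr1 groups overlap in DBA/2J.

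The largest increases among genes with a mean log2 CPM of at least 1 and no overlap in either strain lay mostly outside these lists. Slc28a1, a nucleoside transporter of the proximal tubule, was at 0.249, 0.649 and 1.05 CPM in C57BL/6J controls and 2.19, 6.35 and 1.17 CPM under tunicamycin. DBA/2J libraries held 0.624, 0.812 and 0.541 CPM and 3.84, 2.83 and 3.07 CPM. Expression in controls was low and the C57BL/6J tunicamycin libraries differed widely. The rise was 2.36 on the log2 scale (SE 0.408, edgeR adjusted p = 0.0166), with the call kept in 9 of 12 refits.

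Hhipl1, a gene related to the hedgehog-interacting protein, rose by 2.31 (SE 0.289, edgeR adjusted p = 0.00317) and Fam171b by 2.08 (SE 0.258, edgeR adjusted p = 0.00536). Cox6a2, a cytochrome c oxidase subunit known from muscle, rose by 1.99 (SE 0.296, edgeR adjusted p = 0.00608), from 0.299, 0.649 and 0.969 to 1.83, 2.87 and 1.25 CPM in C57BL/6J and from 1.35, 0.558 and 0.744 to 4.34, 5.05 and 3.28 CPM in DBA/2J. The secreted carbonic anhydrase Car6 rose by 1.43 (SE 0.21, edgeR adjusted p = 0.00608), and Cdsn, which encodes corneodesmosin, by 1.33 (SE 0.207, edgeR adjusted p = 0.00874). Acox2, a peroxisomal oxidase of bile acid intermediates and branched fatty acids, was singled out after its value was seen. It rose by 1.199 (SE 0.188, edgeR adjusted p = 0.0131), with overlapping C57BL/6J groups and a larger change in DBA/2J, 1.83 against 0.57, a difference that was not called (interaction, edgeR adjusted p = 0.999).

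Of the 69 genes that fell, 3 were members of any of the 28 lists, as were 60 of the 164 that rose. Cryab, a small heat shock protein of the cytosol, had the smallest p of the 69. It was at 433, 451 and 492 CPM in C57BL/6J controls and 291, 371 and 309 CPM under tunicamycin. DBA/2J libraries held 1070, 876 and 970 CPM and 651, 678 and 628 CPM. The groups did not overlap in either strain, and the change was -0.53 on the log2 scale (SE 0.0669, edgeR adjusted p = 0.00317). The other 19 cytosolic heat shock genes tested were not called by edgeR, among them Hspa1a at 0.16 and Hspa8 at 0.01 (edgeR adjusted p = 0.727 and 0.968). DESeq2's test called 3 members of that list and edgeR without DBA/2J tunicamycin 2 called 2. With all 48 libraries none was called, Cryab included (edgeR adjusted p = 0.148).

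Clip4, a microtubule-binding protein gene, dropped to 4.24, 5.28 and 3.52 CPM from 14.6, 10.4 and 16.1 in C57BL/6J, and to 30, 20.5 and 20.1 CPM from 110, 38.2 and 73.5 in DBA/2J. The controls of DBA/2J differed widely among themselves, and the log2 fold change of -1.63 (SE 0.261, edgeR adjusted p = 0.0195) held its call in 6 of 12 refits. Il5ra, a cytokine receptor chain, fell by 1.69 on the log2 scale, and Ksr2, a scaffold of the MAP kinase cascade, by 1.25 (SE 0.2, edgeR adjusted p = 0.00933). Il24, a cytokine gene, and Crct1 fell by 1.07 and 1.22 on the log2 scale. The call of Ksr2 held in all 12 refits, that of Il5ra in 8, and those of Il24, Crct1, Misp and Cdh2 in 2 or 3.

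Other genes that fell were singled out after their values were seen, and no group is tested by them. Il1rn, the antagonist of the interleukin-1 receptor, was at 184, 163 and 158 CPM in C57BL/6J controls and 117, 121 and 153 CPM under tunicamycin, and in DBA/2J at 172, 156 and 159 CPM and 123, 122 and 98.4 CPM. The ranges did not meet, and it fell by 0.43 on the log2 scale (SE 0.0772, edgeR adjusted p = 0.0156), a call kept in 11 of 12 refits. Il1f6, a ligand of that family, fell by 0.54 and Il1rl1, the receptor of interleukin-33, by 0.43, each with calls kept in 4 of 12 refits. Plau and Plat, the urokinase and tissue plasminogen activators, fell by 0.52 and 0.44, with 3 and 1 of 12 refits keeping the call. Without the filter on low counts the calls of Plau and Plat were lost, and that of Plau also with the replicate number as a block. With all 48 libraries those of Il1rn, Il1f6 and Il1rl1 were lost (edgeR adjusted p = 0.261, 0.285 and 0.194). Itga3, an integrin chain, Fermt1, a kindlin, and Ptpn22, a phosphatase, fell by 0.32, 0.67 and 1.08, each with 4 of 12 refits keeping the call. Itga3 was not called with all 48 libraries, nor Fermt1 and Ptpn22 without the filter. Usp9x, a deubiquitinase, fell by 0.40 (SE 0.0556, edgeR adjusted p = 0.00536) and Steap2, a metalloreductase, by 0.55 (SE 0.0709, edgeR adjusted p = 0.00386), both with calls kept in all 12 refits.

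Cell cycle genes had 22 of 25 negative values (median -0.23), and 1, the replication helicase gene Mcm5, fell by 0.64 on the log2 scale (SE 0.125, edgeR adjusted p = 0.0235; 6 of 12 refits kept it). Top2a and Cdk1 had values of -0.93 and -0.82 and were not called by edgeR (adjusted p = 0.195 and 0.152). DESeq2's test, the unfiltered fit and the refits without DBA/2J control 2 or DBA/2J tunicamycin 1 each called 2 members of the list. In bulk tissue, fewer cycling cells and less of these transcripts per cell cannot be told apart. The injury markers had no member called of 22. Havcr1, which encodes KIM-1, was at 250, 209 and 262 CPM in C57BL/6J controls and 98.1, 134 and 31.5 CPM under tunicamycin, and in DBA/2J at 888, 331 and 573 CPM and 381, 179 and 180 CPM. The DBA/2J groups overlapped, and the log2 fold change of -1.36 (SE 0.377) had an edgeR adjusted p of 0.14. It was called by DESeq2's test (adjusted p = 0.0115) and with all 48 libraries (edgeR adjusted p = 0.00602). Lcn2, which encodes NGAL, had a value of 0.39 (SE 0.239, edgeR adjusted p = 0.556), and DESeq2's test called 3 of the 22 injury markers. EdgeR called 1 without DBA/2J control 2 or without DBA/2J tunicamycin 1, and 2 with all 48 libraries.

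Interferon-stimulated genes had 24 of 25 negative values over both strains with no call (median -0.20). The list median was -0.45 in C57BL/6J and 0.09 in DBA/2J. The mean log2 CPM of the list was 5.58 to 6.18 in C57BL/6J controls and 5.14 to 5.57 under tunicamycin. The groups of that strain were parted only by a small margin, 5.578 against 5.568. In DBA/2J the same means were 4.17 to 4.48 and 4.02 to 4.73, which overlapped. No interaction was called, and 1 member was called over both strains by DESeq2's test and by edgeR without DBA/2J tunicamycin 1 or without the filter. Extracellular matrix genes had a median of 0.20 with no call in 25. The mean log2 CPM of that list was 6.55 in DBA/2J tunicamycin library 1, against 5.32 and 5.74 in the other DBA/2J tunicamycin libraries and 5.36 to 5.67 in DBA/2J controls. In that library Col3a1 was at 232 CPM against 16.7 and 23.5 CPM in the other DBA/2J tunicamycin libraries and 21 to 24.7 CPM in DBA/2J controls. The summed level of the 12 fibroblast, pericyte and smooth muscle markers in the DBA/2J tunicamycin libraries ranged from 496 to 1800 CPM, against 612 to 1120 in DBA/2J controls, and its part in the matrix values was not tested.

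No gene was called by edgeR in the lists for p53 and apoptosis, NRF2 targets, cholesterol synthesis, fatty acid oxidation, glycolysis and hypoxia, cytokines, NF-kappaB feedback, autophagy and lysosome, respiratory chain subunits and IRE1-dependent RNA decay. DESeq2's test called 2 cholesterol genes and none in the other 9 of these lists. Without C57BL/6J tunicamycin 3 edgeR called 4 cholesterol genes, without DBA/2J tunicamycin 2 it called 1 p53 and apoptosis gene, and without DBA/2J control 2 it called 1 autophagy gene. Without the filter it called 3 cholesterol genes, 1 p53 and apoptosis gene and 1 gene of glycolysis and hypoxia, and with all 48 libraries 1 cholesterol gene. With the replicate number as a block it called 1 respiratory chain subunit and 1 cholesterol gene. Mvd, a mevalonate pathway enzyme, stood highest of the cholesterol genes at 0.65 (edgeR adjusted p = 0.0561). The p53 target Cdkn1a, which encodes p21, was at 0.02 (edgeR adjusted p = 0.949). Of 40 ribosomal proteins 35 had positive values (median 0.05), and Rplp1 rose by 0.24 (SE 0.0445, edgeR adjusted p = 0.0189). DESeq2's test called 3 of the ribosomal proteins, and the fit of all 48 libraries none. The call of Rplp1 held in 9 of 12 refits, and was lost without C57BL/6J control 2 or 3 or C57BL/6J tunicamycin 1. At an unadjusted p under 0.05 the comparison held 2174 of the 16905 genes.

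None of the 86 tested markers of the 8 cell type lists was called by edgeR (DESeq2's test called 1, as did edgeR without C57BL/6J tunicamycin 2). Summed proximal tubule markers were 1810 to 2560 CPM in C57BL/6J controls and 1490 to 4540 under tunicamycin, and 4510 to 8360 and 4430 to 7510 in DBA/2J. Thick ascending limb and distal tubule markers summed to 4160 to 7680 and 3880 to 8740 CPM in C57BL/6J and to 3750 to 7440 and 5880 to 13100 CPM in DBA/2J. Immune markers summed to 252 to 395 and 312 to 388 CPM in C57BL/6J and to 358 to 468 and 389 to 631 CPM in DBA/2J. These ranges overlapped within each strain.

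Gene length moved with the direction of change. The 69 genes that fell had a median exonic length of 7280 bases and the 164 that rose one of 3261, against 3910 over all genes tested. Among the shortest genes, up to 2800 bases, 64 rose and 8 fell, and among the longest, above 5331 bases, 34 rose and 47 fell. The median log2 fold change was 0.04 in the shortest class and -0.02 in the longest. The difference in median log2 CPM between long and short genes was 2.26 to 2.32 in C57BL/6J controls and 2.16 to 2.27 under tunicamycin, and 2.01 to 2.12 and 1.96 to 2.05 in DBA/2J. The part of length in the calls was not tested.

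A further 9 of the 164 genes that rose are annotated as processed pseudogenes, 1 of them transcribed, with a median log2 fold change of 1.36 between 0.46 and 1.89. Such copies share reads with their parent genes, so their values are uncertain. Their changes under cyclosporin A against the same controls had a median of 0.97, and none of the 9 was called between the drugs. Gm25745, at 0.77 (SE 0.0849, edgeR adjusted p = 0.00167), and Gm15344 lie within Hsp90b1 on the same strand, and reads of the 3 genes could have been split between them.

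**Figure D4:**
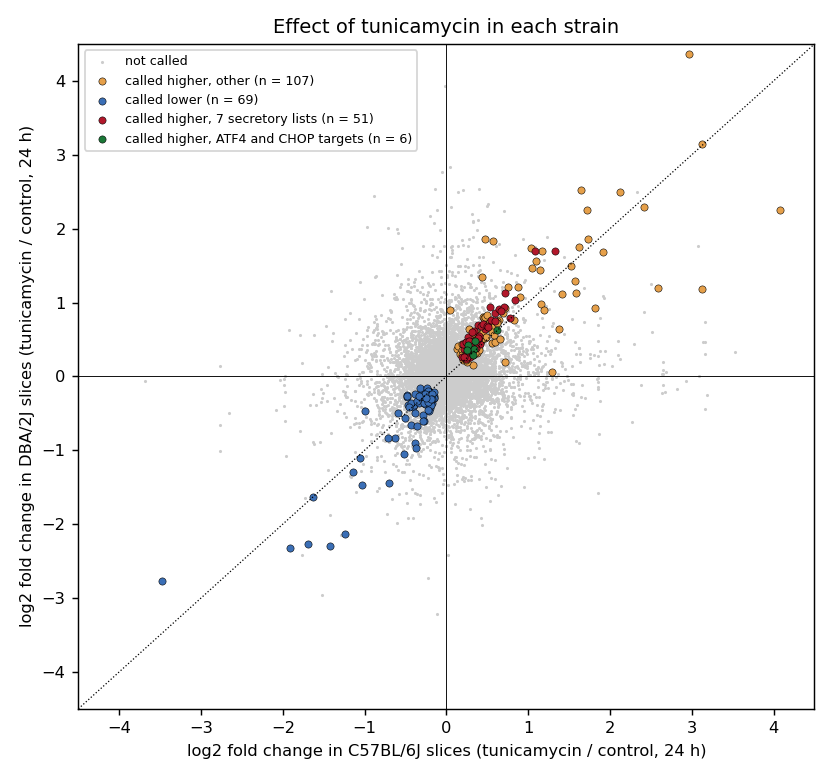
Log2 fold change under tunicamycin in C57BL/6J (x axis) and in DBA/2J (y axis) for all 16905 genes tested; grey points were not called over both strains, coloured points were (51 of the secretory lists, 6 targets of ATF4 and CHOP, 107 others that rose, 69 that fell), and the dotted line marks equal change. All coloured points lie in the upper right or lower left, where both strains share the sign. They were chosen by the mean of both strains, which favours a shared sign.

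By strain, 40 genes were called in DBA/2J, or 0.237% of those tested, with 34 higher and 6 lower, and none in C57BL/6J, 0.0% (edgeR; 1042 at an unadjusted p under 0.05; DESeq2's test called 50). In DBA/2J DESeq2's test called 250, the fit of all 48 libraries 131 and the unfiltered fit 179; the latter pair called 15 and 38 in C57BL/6J. The smallest adjusted p in C57BL/6J was 0.146. The difference between the strains was called for no gene, 0.0% (edgeR; 338 at an unadjusted p under 0.05; none by DESeq2's test). Of the 34 that rose in DBA/2J, 32 had a positive value in C57BL/6J, as had 50.2% of all genes tested. Their p-values in C57BL/6J are no separate check, since both strains share 1 estimate of the spread per gene. Their median log2 fold change was 0.85 in DBA/2J, where they were chosen, and 0.56 in C57BL/6J. All 6 that fell in DBA/2J were negative in C57BL/6J.

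Same-numbered control and tunicamycin libraries deviated together in DBA/2J, and with the replicate number as a block 83 genes were called there. Without the block, the counts of 0 in C57BL/6J and 40 in DBA/2J rested on single libraries. The blocked count was not checked by leaving out libraries. In C57BL/6J 40 genes were called without tunicamycin library 3. In DBA/2J none was called without DBA/2J control 1 or 3, DBA/2J tunicamycin 1 or 2 or C57BL/6J control 1, and 6 or 7 without DBA/2J tunicamycin 3 or C57BL/6J control 2 or 3. Without C57BL/6J tunicamycin 1 the DBA/2J count was 21, and without C57BL/6J tunicamycin 3 it was 120; the fit estimates 1 spread over all 12 libraries. The genes with the smallest p for the difference were Agtrap, Gch1 and the pseudogene Gm15501. Agtrap, which encodes a protein bound to the angiotensin receptor, was at 55.5, 53.1 and 53.7 CPM in C57BL/6J controls and 52.1, 52.8 and 53.8 CPM under tunicamycin. In DBA/2J it was at 33.9, 32.5 and 34 CPM and 48.9, 48.3 and 41.3 CPM. The C57BL/6J groups overlapped and the DBA/2J groups did not, and the difference of 0.52 was not called (edgeR adjusted p = 0.999).

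At 6 h of tunicamycin edgeR called none of 16551 genes against 6 h controls, with 281 at an unadjusted p under 0.05. The difference between the 24 h and the 6 h effect, fitted on 24 libraries, was called for 27 of 17738 genes, 0.152%. The effect was higher at 24 h for 24 genes and lower for 3. The ER chaperone list had a median of -0.02 at 6 h and 0.45 at 24 h. Fkbp11 had a log2 fold change of 0.10 at 6 h and 1.52 at 24 h, and its effects differed by 1.41 (SE 0.183, edgeR adjusted p = 0.00196). Calr was at -0.01 at 6 h and its effects differed by 0.73 (SE 0.109, edgeR adjusted p = 0.00619). The mitochondrial share of counts was higher in the 6 h libraries of this comparison (14.6% to 16.3% in C57BL/6J, 8.05% to 9.30% in DBA/2J) than in those of 24 h (5.43% to 7.87% and 3.23% to 3.60%), and its part in the difference was not tested. For Ddit3 the difference of 0.69 (SE 0.207) was not called (edgeR adjusted p = 0.362), nor was that of Chac1, 0.39 (SE 0.299, edgeR adjusted p = 0.919). The number called was 77 without C57BL/6J tunicamycin 3 at 24 h and 9 without DBA/2J control 1 at 6 h, the extremes of 24 refits. It was 70 by DESeq2's test, 53 with all 48 libraries, 45 without the filter and 17 with a replicate block. It was 10 to 17 without each of the 3 C57BL/6J controls, C57BL/6J tunicamycin 1 or 2, DBA/2J control 3 or DBA/2J tunicamycin 2 at 24 h, and without C57BL/6J control 3, C57BL/6J tunicamycin 2 or 3, DBA/2J control 3 or DBA/2J tunicamycin 1 or 3 at 6 h.

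**Figure D5:**
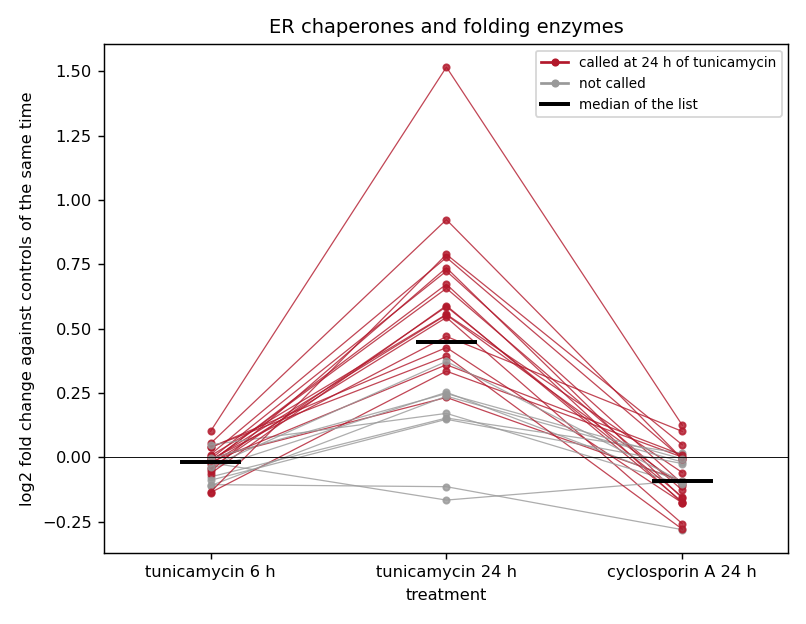
Log2 fold change against controls of the same time (y axis) for the 28 tested ER chaperones and folding enzymes under 6 h of tunicamycin, 24 h of tunicamycin and 24 h of cyclosporin A (x axis); lines join a gene, red genes were called at 24 h of tunicamycin, and black bars are medians. The medians are -0.02, 0.45 and -0.09, and both 24 h comparisons use the same control libraries.

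Cyclosporin A at 24 h, a nephrotoxin that inhibits calcineurin, was compared directly with tunicamycin at 24 h, without control libraries. EdgeR called 225 of 17231 genes, 1.31%, with 146 higher and 79 lower under tunicamycin.  Of the 164 genes that rose against control, 97 were among the 146 higher than under cyclosporin A, and 31 of the 69 that fell were among the 79 lower; the tunicamycin libraries are common to both comparisons. Against controls, edgeR called no gene of 16887 for cyclosporin A (1107 at an unadjusted p under 0.05).

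In the direct comparison 19 of 28 ER chaperones and 8 of 25 ERAD genes were higher under tunicamycin, and 4 of 28 ATF4 and CHOP targets. Hspa5 differed by 0.67 (SE 0.112, edgeR adjusted p = 0.0124). Against the shared controls its values were 0.39 for tunicamycin and -0.28 for cyclosporin A, the latter not called (edgeR adjusted p = 0.656). Calr differed by 0.82 (SE 0.0976, edgeR adjusted p = 0.0034) and Herpud1 by 1.02 (SE 0.11, edgeR adjusted p = 0.00322). Atf5 and Rplp1, at 0.16 and 0.05, were not called between the drugs (edgeR adjusted p = 0.324 and 0.792). Among genes that fell, Plau differed by -0.67 (SE 0.108, edgeR adjusted p = 0.0111), Mcm5 by -0.80 (SE 0.0901, edgeR adjusted p = 0.00322) and Clip4 by -1.64 (SE 0.191, edgeR adjusted p = 0.00385), while Usp9x at -0.14 was not called (edgeR adjusted p = 0.323). Without C57BL/6J cyclosporin A 1, 2 or 3 the count of 225 was 91, 111 or 78, and without C57BL/6J tunicamycin 1 or 2 it was 79 or 108. It was 123 without DBA/2J cyclosporin A 2, 130 without DBA/2J tunicamycin 1, 134 without DBA/2J tunicamycin 2 and 299 without C57BL/6J tunicamycin 3. The count was 515 by DESeq2's test, 412 with all 48 libraries and 468 with a replicate block.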

How the data were processed

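RNA-seq libraries of kidney slices were used, 12 of 48: 3 control and 3 tunicamycin libraries of each strain at 24 h. The values are raw counts per gene deposited by the authors. Per the labels, RNA was extracted with a Qiagen kit and a stranded mRNA kit was used. STAR 2.7.9a, featureCounts 1.5.1, bcl2fastq 2.20.0, FastQC 0.11.8 and build GRCm38 are named per the submitters' processing notes; the annotation release and the strand setting of the counting are not given in the sources used here. Total counts were 12384733 to 23316215, and 55141 of 55487 gene identifiers had a symbol.

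Counts were filtered with filterByExpr, scaled by TMM and tested in R 4.3.3 with limma 3.58.1 and edgeR 4.0.16, using robust quasi-likelihood F tests on 4 group means, averaging the strain effects, with Benjamini-Hochberg adjustment over all genes tested at 0.05. Separate fits gave the direct comparison with cyclosporin A and the 24 h minus 6 h effect. Alternatives were DESeq2 1.42.0, its size factors within edgeR, no filter, all 48 libraries, a replicate block and leaving out each library. Promoters are from RefSeq (GRCm38.p6).

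Named genes were the 8 largest rises and falls with non-overlapping groups and a mean log2 CPM of at least 1, the 8 smallest p values, up to 4 called members per list, 7 preset genes and the 3 smallest p values for the strain difference. A gene that this rule takes is not reported here. Other genes were singled out after their values were seen. The members and lists were chosen with earlier results of these data known.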

Additional observations from a re-analysis of the deposited data

Results flagged for a closer look

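The effect of tunicamycin differed between 24 h and 6 h, tested as an interaction in edgeR, for 27 genes at an adjusted p under 0.05. Those among the named genes are given here. Some were taken by the naming rule, which draws in part from the ER lists, and others were singled out after their values were seen. On the log2 scale the difference was 1.411 for Fkbp11, 0.92 for Ero1lb, 0.908 for Herpud1, 0.865 for Creld2, 0.828 for Syvn1, 0.786 for Pdia4 and 0.761 for Manf. It was 0.727 for Calr, 0.669 for Dnajc3, 0.65 for Pdia3, 0.562 for Pdia6, 0.559 for Nans, 0.515 for Nucb2, 0.471 for Rpn1, 0.436 for Atp2a2 and 0.394 for Mcfd2. Hhipl1 differed by 3.057 and Fam171b by 2.264. Clip4 and Steap2 differed by -1.614 and -0.555, with the lower value at 24 h.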

How the results depend on the processing

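Scaling by DESeq2's size factors kept the count of each comparison within 1.5 times, lowered the amino acid transporters called from 2 to 1 and moved the median of all genes by -0.006. Over both strains DESeq2's test called 526 genes against 233, sharing 231, and the unfiltered fit called 395. In C57BL/6J the main count of 0 became 50 with DESeq2's test, 15 with all 48 libraries and 38 without the filter; in DBA/2J the count of 40 became 250, 131 and 179. Tunicamycin against cyclosporin A gave 515 with DESeq2's test and 412 with all 48 libraries, and the 24 h minus 6 h effect gave 70, 53 and, without the filter, 45. Leaving out each library gave 78 to 344 genes for both strains together, 0 to 40 for C57BL/6J, 0 to 120 for DBA/2J, 78 to 299 against cyclosporin A and 9 to 77 for the time difference. The strain difference stayed at 0 under each alternative run. The causes were not tested. Of the 84 called genes tracked, 67 kept their call with all 48 libraries, 71 without the filter and 84 with DESeq2's test, and none reversed. Calls lost with all 48 libraries were those of Atf5, Cdh2, Chac1, Cryab, Dnajb9, Hspa5, Il1f6, Il1rl1, Il1rn, Itga3, Ppp1r15a, Psmc6, Psph, Rplp1, Sesn2, Slc7a5 and Trib3. Those lost without the filter were Crct1, Dnajb9, Edem1, Fermt1, Hsp90b1, Hspa5, Plat, Plau, Psmc6, Ptpn22, Sdf2l1, Sec24d and Sel1l.

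With the replicate block, the count for both strains together was 314, that of C57BL/6J 0, that of DBA/2J 83, with 468 against cyclosporin A and 17 for the time difference. Of the 84 genes, 79 kept their call; those of Derl3, Crct1, Plau, Psmc6 and Psph had adjusted p of 0.0779, 0.078, 0.125, 0.0681 and 0.0706. The block also called 4 cell cycle genes, 9 of ER translocation, 2 injury markers and heat shock genes each, 1 respiratory chain subunit, 1 cholesterol gene, 1 interferon-stimulated gene and 1 collecting duct marker, and no proteasome subunit. Same-numbered control and tunicamycin libraries had residual correlations of 0.125, 0.083 and -0.108 in C57BL/6J and 0.211, 0.216 and 0.202 in DBA/2J. By this measure the numbers pair the samples in DBA/2J and not throughout in C57BL/6J, and the fit over both strains was left without the block. In DBA/2J each library correlated best with its own number. In C57BL/6J controls 1 and 2 did so too, while control 3 correlated best with tunicamycin 2, at 0.113. With 3 libraries a group, small changes within a single strain may go undetected at this depth.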
